A study of Mus musculus with 16 samples.

Results

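Members of the EGF receptor family (the 3 receptors Egfr, Erbb2 and Erbb3) and 6 of their ligands (Tgfa, Areg, Ereg, Hbegf, Btc and Egf) were followed in mouse AML12 hepatocytes in which eIF6 was silenced. The 9 genes were chosen by name, as every probe whose gene name in the scanner files was one of these symbols, out of 30214 gene names on the array. All 9 were among the 19367 genes with signal above background on enough arrays to be tested, but Erbb3 passed only through the eIF6 shRNA arrays, so a difference of that gene is built into its selection.

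The receptors of this family sit in the cell membrane as single chains. A ligand brings them together in pairs, and their kinase domains then start the Ras-MAPK and PI3K cascades. The ligands are made as membrane proteins and are cut loose by ADAM proteases. In hepatocytes the family is known for driving proliferation in the regenerating liver. AML12 cells were derived from mice that carry a transgene for human TGF-alpha, the ligand encoded by Tgfa. Whether the mouse Tgfa probe also reads the transgene was not tested.

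RNA was taken from sucrose gradients as a polysomal fraction (mRNAs loaded with several ribosomes) and a subpolysomal fraction, and the RNA of each sample was read on a separate Agilent array with 1 dye. The arrays formed 4 groups of 4: scramble shRNA, subpolysomal; scramble shRNA, polysomal; eIF6 shRNA, subpolysomal; and eIF6 shRNA, polysomal. The study's methods describe the 4 samples of a group as biological replicates. All cells, scramble controls included, carried a lentiviral shRNA switched on by doxycycline, had been selected with puromycin, were grown with serum, dexamethasone and an insulin, transferrin and selenium supplement, and received insulin for 1 h. For the insulin the labels state both 100 nM and 100 mM, and they call the silenced cells only "shrna"; the methods name eIF6 as the target. The line is labelled male, and no labels give an untreated or insulin-free group.

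Between 20196 and 24960 probes per array were well above background, no spot was saturated, and arrays of one group correlated at 0.988 or more. Probe positions are on the mm9 build, as the files give them; no gene annotation of that build was used here, so exons are not stated. Signals are given as log2 of the normalized intensity, and changes as eIF6 shRNA minus scramble on that scale. As the mean of its probes, Eif6 itself was at 12.94 to 12.96 on the 4 scramble polysomal arrays. It was at 11.81 to 12.00 on the 4 eIF6 shRNA polysomal arrays, a change of -1.05 (SE 0.079, limma adjusted p = 1.46e-07). In subpolysomal RNA its change was 0.015 (SE 0.079, adjusted p = 0.915). By probe the polysomal changes of Eif6 were -1.38, -1.26 and -0.52, the last from the dimmest probe. Of 15 hepatocyte markers on the array, 9 were well above background on all 16 arrays. The log2 of the summed signal of the 13 that were tested lay between 18.14 and 18.92 in every group, but Fgb was above background on no array and Alb on 7 of 16. Markers of stellate cells and fibroblasts moved with the shRNA. The log2 of the summed signal of the 9 such genes that were tested was 16.87 to 16.97 in scramble subpolysomal and 17.29 to 17.98 in scramble polysomal arrays. It was 15.42 to 15.86 in eIF6 shRNA subpolysomal and 14.22 to 14.71 in eIF6 shRNA polysomal arrays. All 9 of these genes were called lower on polysomes, and Pdgfra was above background on 8 of 8 scramble and 0 of 8 eIF6 shRNA arrays. In bulk samples such as these, fewer cells of a type and less RNA per cell cannot be told apart, and the part of this shift in the results below was not tested. Lrat was above background on no array. Bile duct markers were at 13.79 to 14.75 in all groups and macrophage markers at 11.87 to 12.46. Of the 6 endothelial genes on the array, Cdh5, Tek, Stab2 and Lyve1 were above background on no array. The other 2, Pecam1 and Kdr, were well above background on all 16 arrays. Neither was called between the shRNAs in either fraction.

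On polysomes, 3 ligands were lower in eIF6 shRNA cells (Btc, Ereg and Tgfa), 1 receptor was higher (Erbb3), and the other 5 genes did not pass the test. In subpolysomal RNA the same 3 ligands and Hbegf were lower. Erbb3 passed the test there too, but its mean with the eIF6 shRNA was under the lowest signal well above background on the scramble arrays, so no difference was measured. A gene was called at a limma p under 0.05 after Benjamini-Hochberg adjustment over all genes. The 4 of 9 genes called on polysomes, Erbb3 included, compare with 21.8% of all genes tested (10.7% lower, 11.1% higher). The 5 of 9 in subpolysomal RNA, Erbb3 included, compare with 24.2% (12.3% lower, 11.9% higher). The median change of the 9 genes was -0.38 on polysomes and -0.21 in subpolysomal RNA, beside 0.016 and 0.025 over all genes tested.

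**Figure D1:**
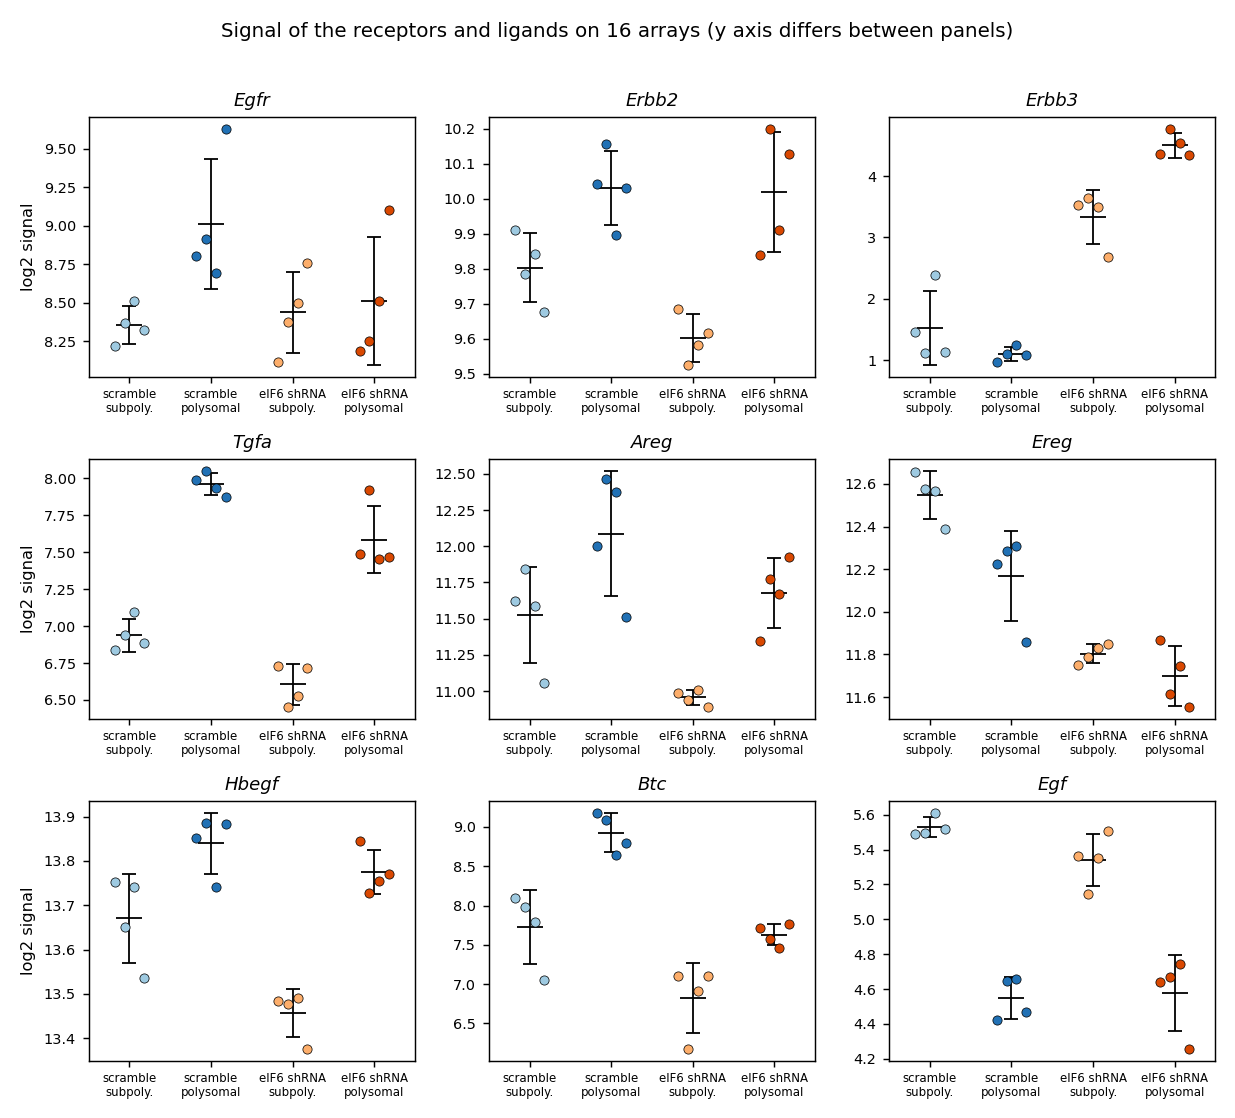
Log2 signal of the 9 genes (1 panel each, y axes differ) on the 16 arrays, grouped by shRNA and fraction; points are arrays in order of replicate number, and the bar and whiskers are the mean and SD of 4 arrays. Erbb3 separates the shRNAs at low signal, and the 4 eIF6 shRNA polysomal arrays of Btc (7.46 to 7.77) lie below the 4 scramble ones (8.65 to 9.18).

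Erbb3, a receptor that binds neuregulins and signals mainly through a partner because its own kinase is weak, was detected on all 4 eIF6 shRNA polysomal arrays and on no scramble array. Its single probe lies on chromosome 10 of the mm9 build (chr10:128006424-128006483, minus strand), and it is shown because every value of Erbb3 rests on it. The capitals mark the codon TGA that ends a reading frame running through the probe.
Erbb3 probe: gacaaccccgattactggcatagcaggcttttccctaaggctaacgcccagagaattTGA

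The signal of this probe was 0.97, 1.11, 1.25 and 1.10 on the scramble polysomal arrays and 4.35, 4.76, 4.54 and 4.34 on the eIF6 shRNA polysomal arrays. In subpolysomal RNA it was 1.46, 1.12, 2.39 and 1.14 with the scramble and 3.53, 3.64, 3.49 and 2.69 with the eIF6 shRNA. The shRNA groups did not overlap in either fraction, but the probe was well above background on 0 of 8 scramble arrays, on 1 of 4 eIF6 shRNA subpolysomal arrays and on 4 of 4 eIF6 shRNA polysomal arrays. Its scramble levels were therefore not measured. Set against the lowest signal that was well above background on the scramble polysomal arrays (mean 2.70), Erbb3 on eIF6 shRNA polysomes (mean 4.50) was 3.48-fold higher. This floor is no strict limit. On eIF6 shRNA subpolysomal replicate 3 the probe read 3.49 and was not well above background, beside a lowest well-above signal of 3.45. The limma fit used the scramble values below background and gave an adjusted p of 1.69e-07. Because Erbb3 passed the filter only through the eIF6 shRNA arrays, that p is not separate evidence of a difference. With normexp background correction, whose offset of 50 raises dim signals, the fitted polysomal difference was 0.43 (adjusted p = 7.36e-07) in place of 3.39, so the size depends on how the background is treated. In subpolysomal RNA no fold can be given, since the eIF6 shRNA mean (3.34) was under the scramble floor (3.43).

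Erbb3 was also the 1 gene of the 9 called for a change in translational efficiency, the polysomal change minus the subpolysomal change, with a fitted value of 1.58 (SE 0.36, adjusted p = 0.0444), beside 1.51% of all genes tested called in this comparison (1.1% lower, 0.403% higher). Both scramble fractions were not well above background, so this value is not a measured difference in efficiency. It was 0.24 with normexp, and the call was lost without any one of the 4 replicates (adjusted p between 0.0807 and 0.301). For the other 8 genes the change in translational efficiency lay between -0.58 (Egfr, 95% confidence interval -1.25 to 0.088, adjusted p = 0.493) and 0.27 (Ereg, -0.048 to 0.59, adjusted p = 0.505). The median over the 9 genes was 0.16 and over all genes 0.017.

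Egfr, the receptor of TGF-alpha and amphiregulin, was measured by 3 probes on chromosome 11, and they did not move alike between fractions. One probe (chr11:16813815-16813874) is annotated in the files to transcript variant 1, which encodes the full receptor. The other 2 are annotated to transcript variant 2, a shorter transcript known to encode a form without the kinase domain. They are printed because the probes differ in what they show, and capitals in the first mark the codon TAA that ends a reading frame through it. It lies at chr11:16787172-16787231 and the second at chr11:16783556-16783615, both on the plus strand. Whether the second also matches variant 1 was not tested, so it may not read variant 2 alone.
Egfr variant 2, probe with stop codon: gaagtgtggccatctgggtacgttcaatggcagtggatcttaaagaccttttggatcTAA
Egfr variant 2, upstream probe: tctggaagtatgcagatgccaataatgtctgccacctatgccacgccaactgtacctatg

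As the mean of its probes, Egfr on polysomes was at 8.80, 8.91, 8.69 and 9.63 in scramble cells and at 8.19, 8.25, 8.51 and 9.10 in eIF6 shRNA cells. Replicate 4 was the highest array of both groups, and the groups overlapped through it. The change of -0.50 (95% confidence interval -0.97 to -0.025) did not pass the test (adjusted p = 0.135). Without replicate 4 it was -0.49 with an adjusted p of 0.0184, but it did not pass without replicate 1, 2 or 3 (adjusted p = 0.326, 0.385 and 0.214). Within slides the polysomal change ran from -1.38 to 0.30. In subpolysomal RNA the change was 0.082 (-0.39 to 0.55, adjusted p = 0.834).

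In scramble cells the variant 1 probe was 0.17 lower on polysomes than in subpolysomal RNA on the log2 scale (10.95 ± 0.23 against 11.12 ± 0.17, SD, n = 4). The variant 2 probe with the stop codon was 1.37 higher on polysomes (7.75 ± 0.66 against 6.38 ± 0.21), and the upstream probe was 0.77 higher (8.33 ± 0.40 against 7.56 ± 0.15). With the eIF6 shRNA the 3 polysomal minus subpolysomal differences were -0.25, 0.33 and 0.15. Each probe annotated to variant 2 was compared with the variant 1 probe in 4 comparisons by a two-sided exact permutation test over arrays. These were 8 tests in all with a smallest possible p of 0.0286, chosen after the values had been seen. The difference in the polysomal over subpolysomal ratio reached that p for both probes with both shRNAs (scramble, 1.55 and 0.94; eIF6 shRNA, 0.58 and 0.41; adjusted p = 0.0458). The subpolysomal change differed from that of the variant 1 probe by 0.74 for the stop codon probe (exact p = 0.0286, adjusted p = 0.0458) and by 0.52 for the upstream probe (exact p = 0.0571, adjusted p = 0.0761). The polysomal changes, -0.42, -0.64 and -0.43, gave no difference that passed this test (exact p = 0.486 and 0.857). A gene value built from these probes mixes them, and the brightest probe alone turned the sign of Egfr in subpolysomal RNA (-0.34) and in both ratios (-0.17 and -0.25). The variant 1 probe is printed on the array in 10 spots, whose SD within an array had a median of 0.041.

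**Figure D2:**
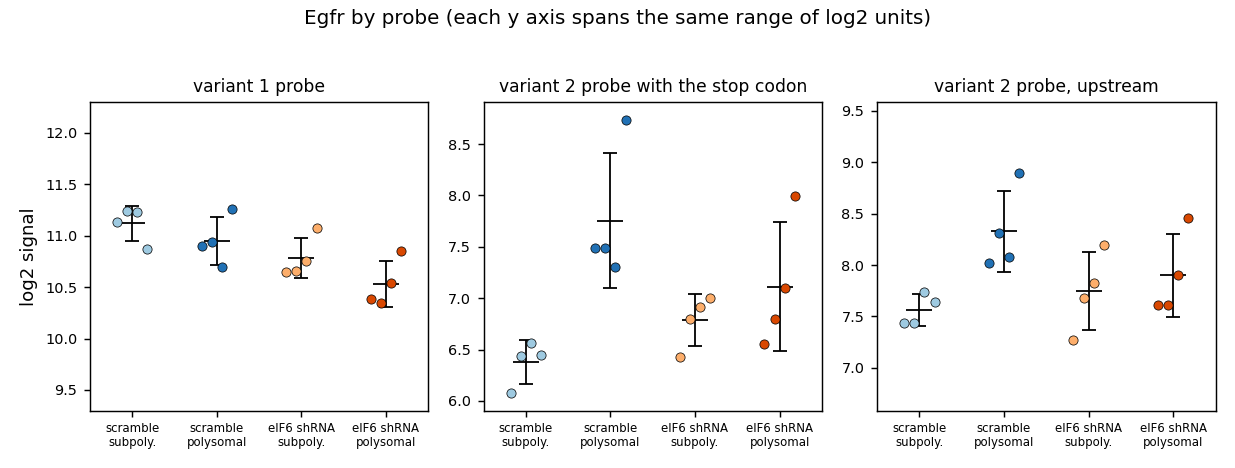
Log2 signal of the 3 Egfr probes by group, with the mean and SD of 4 arrays; each y axis spans the same number of log2 units, and levels of different probes are not comparable. The polysomal arrays lie above the subpolysomal arrays in scramble cells for both probes annotated to variant 2 and not for the variant 1 probe. Whether the upstream probe also matches variant 1 was not tested.

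Erbb2, the receptor that has no known ligand of its own and serves as the partner of the others, did not pass the test in either fraction. On polysomes its signal was 9.90 to 10.15 in scramble and 9.84 to 10.20 in eIF6 shRNA cells, with overlapping groups and a change of -0.012 (95% confidence interval -0.21 to 0.19, adjusted p = 0.956). In subpolysomal RNA the change was -0.20 (-0.40 to -0.0018, adjusted p = 0.136), and all 4 slides had a negative difference. Erbb2 was measured by 10 spots of 1 probe on chromosome 11 (chr11:98298103-98298162), with a median SD between spots of 0.052.

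Btc, betacellulin, a ligand of Egfr and Erbb4 (probe at chr5:91786948-91787007), fell most among the ligands. On polysomes its signal was 9.18, 9.09, 8.65 and 8.80 in scramble cells and 7.71, 7.57, 7.46 and 7.77 in eIF6 shRNA cells. These groups did not overlap, and the change of -1.30 (SE 0.23, adjusted p = 0.000811) was a 2.46-fold decrease. In subpolysomal RNA the values were 8.09, 7.98, 7.79 and 7.05 against 7.11, 6.18, 6.91 and 7.11. Here the groups overlapped through scramble replicate 4, and the change was -0.90 (SE 0.23, adjusted p = 0.0114). The difference was negative on 4 of 4 slides in both fractions, at -1.62 to -0.93 on polysomes and -0.99 to -0.87 in subpolysomal RNA. Without replicate 1, 2 or 3 the subpolysomal change was -0.88, -0.60 or -0.91 and no longer passed (adjusted p = 0.0631, 0.129 and 0.0717), whereas the polysomal call held without each of the 4 replicates.

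Ereg, epiregulin, which binds the same receptors as Btc (probe at chr5:91522553-91522612), was lower in both fractions. Its subpolysomal signal was 12.66, 12.58, 12.57 and 12.39 with the scramble and 11.75, 11.79, 11.83 and 11.85 with the eIF6 shRNA, so that all scramble arrays were above all eIF6 shRNA arrays. The change was -0.74 (SE 0.11, adjusted p = 0.00012), a 1.67-fold decrease, and it held without each replicate in turn. On polysomes the values were 12.22, 12.28, 12.31 and 11.86 against 11.87, 11.62, 11.75 and 11.55. There the lowest scramble array, replicate 4, fell just within the eIF6 shRNA range, and the change of -0.47 (SE 0.11, adjusted p = 0.00417) did not pass without replicate 2 or 3 (adjusted p = 0.0844 and 0.0604).

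Areg, amphiregulin, is an Egfr ligand whose gene lies next to that of Ereg on chromosome 5. Its polysomal signal was 12.00, 12.46, 12.37 and 11.51 in scramble and 11.35, 11.77, 11.67 and 11.92 in eIF6 shRNA cells, which overlapped. In subpolysomal RNA it was 11.62, 11.84, 11.59 and 11.06 against 10.99, 10.94, 11.01 and 10.89, with no overlap. Neither change passed the test, at -0.41 on polysomes (SE 0.20, adjusted p = 0.182) and -0.57 in subpolysomal RNA (SE 0.20, adjusted p = 0.0533). Scramble replicate 4 was the lowest scramble array in both fractions, and without replicate 4 the changes were -0.68 (adjusted p = 0.00542) and -0.70 (adjusted p = 0.00433). Without replicate 1, 2 or 3 neither change passed (adjusted p = 0.508, 0.452 and 0.534 on polysomes, 0.197, 0.231 and 0.183 in subpolysomal RNA). Leaving out replicate 4 also raised the calls over all genes, from 4221 to 4997 on polysomes and from 4686 to 6159 in subpolysomal RNA.

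Tgfa was lower by a small amount in both fractions. Its polysomal signal was 7.99, 8.05, 7.93 and 7.87 with the scramble and 7.49, 7.92, 7.46 and 7.47 with the eIF6 shRNA. Replicate 2 of the eIF6 shRNA stood within the scramble range and the other 3 lay below it. The change was -0.38 (SE 0.11, adjusted p = 0.0234), a 1.30-fold decrease, and it failed the test without replicate 1, 3 or 4 (adjusted p = 0.173, 0.144 and 0.068). In subpolysomal RNA, where the groups of 6.84 to 7.09 and 6.45 to 6.73 did not overlap, the change was -0.33 (SE 0.11, adjusted p = 0.041) and failed without replicate 1, 2 or 3 (adjusted p = 0.0927, 0.107 and 0.264). The probe, printed in 10 spots and placed at chr6:86224838-86224897, had a median SD between spots of 0.082 within an array.

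Hbegf, heparin-binding EGF-like growth factor, a ligand that also serves as the diphtheria toxin receptor in humans, was at 13.54 to 13.75 in scramble and 13.38 to 13.49 in eIF6 shRNA subpolysomal RNA. The groups did not overlap and the change was -0.21 (SE 0.071, adjusted p = 0.0404), which failed without replicate 1, 2 or 3 (adjusted p = 0.231, 0.168 and 0.185) and with the slide as a block (adjusted p = 0.0529). On polysomes the change was -0.066 (95% confidence interval -0.22 to 0.087, adjusted p = 0.603). Egf, the ligand that gave the family its name, did not pass the test in either fraction. Its change was 0.028 on polysomes (-0.21 to 0.26, adjusted p = 0.909) and -0.19 in subpolysomal RNA (-0.42 to 0.047, adjusted p = 0.243), with overlapping groups in both.

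**Figure D3:**
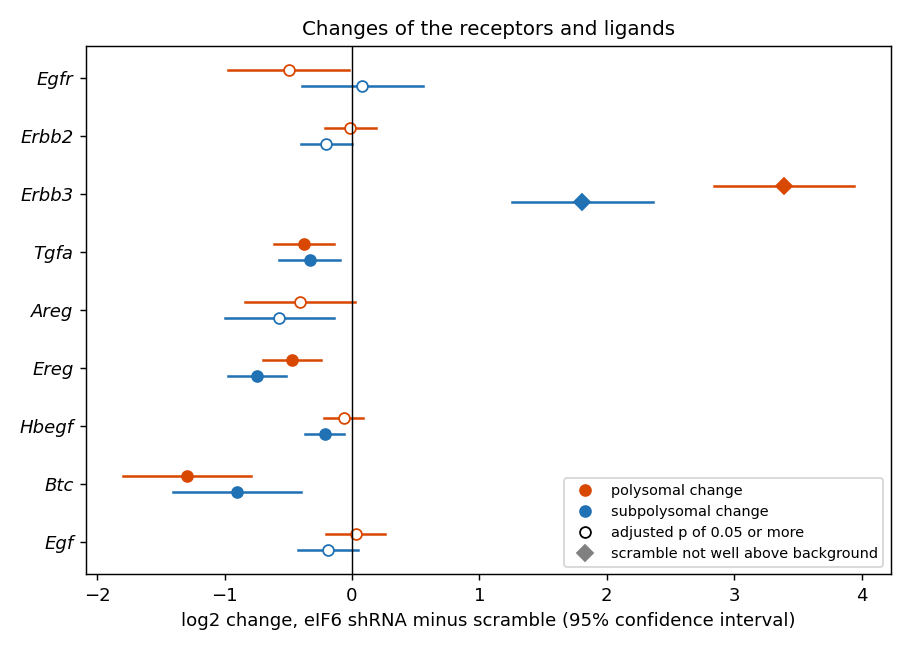
Log2 change (eIF6 shRNA minus scramble, x axis) of each gene on polysomes and in subpolysomal RNA, with 95% confidence intervals from the limma fit; filled symbols passed an adjusted p of 0.05 and diamonds mark Erbb3, whose scramble signal was not well above background. The intervals of Btc and Ereg lie below 0 in both fractions and those of Erbb2 on polysomes and Egf include 0.

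The ratio of polysomal to subpolysomal signal within one shRNA gives how the 9 mRNAs were spread over the gradient relative to other mRNAs, because normalization gave both fractions the same distribution of signals. In scramble cells 7 of the 9 genes were called, 5 higher on polysomes (Btc, Tgfa, Egfr, Areg and Erbb2) and 2 lower (Egf and Ereg), beside 60.1% of all genes tested (28.4% lower, 31.7% higher). Egfr was higher by the mean of its probes. With the brightest probe alone, that of variant 1, its difference was -0.17 and was not called (adjusted p = 0.32). In eIF6 shRNA cells 7 were called, 6 higher (Tgfa, Btc, Areg, Erbb2, Hbegf and Erbb3, the last well above background on 1 of 4 subpolysomal arrays) and 1 lower (Egf), beside 60.8% (28.7% lower, 32.1% higher).

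Tgfa had 1.02 more log2 units on polysomes than in subpolysomal RNA with the scramble (7.96 ± 0.076 against 6.94 ± 0.11, SD, n = 4, adjusted p = 1.58e-06) and 0.98 with the eIF6 shRNA (adjusted p = 2.63e-06). Btc had 1.20 (adjusted p = 0.000442) and 0.81 (adjusted p = 0.00809). Egf went the other way, with 4.55 ± 0.12 on polysomes against 5.53 ± 0.055 in scramble subpolysomal RNA, a difference of -0.98 (adjusted p = 2.28e-06), and -0.76 with the eIF6 shRNA (adjusted p = 2.79e-05). Ereg was lower on polysomes in scramble cells (-0.38, adjusted p = 0.00628), where no polysomal array reached a subpolysomal one, and its difference with the eIF6 shRNA was -0.11 (95% confidence interval -0.33 to 0.12, adjusted p = 0.40). The neighbouring Areg was higher on polysomes with both (0.56, adjusted p = 0.0258, and 0.72, adjusted p = 0.00621), although the scramble call failed without replicate 1, 2 or 3 (adjusted p = 0.0622, 0.0727 and 0.14). Scaling to spike-in probes moved the median ratio of all genes to 1.52 and 1.31 and put Ereg (1.58 and 1.63) and Egf (0.21 and 0.098) above 0, so the sign of these 2 holds only relative to other mRNAs.

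Areg, Ereg and Btc, with epigen (Epgn), another ligand, lie in one stretch of chromosome 5 that spans 322.8 kb between the probes of Epgn and Btc. The Areg probe is at chr5:91570090-91570149, that of Ereg lies at -47.5 kb from it and that of Btc at 216.9 kb. Epgn gave -0.34 on polysomes (adjusted p = 0.475) and -0.085 in subpolysomal RNA (adjusted p = 0.866). In a window of 1000 kb on each side of Areg, chosen after the values had been seen, 25 other genes were tested. Of these, 10 were called on polysomes, beside 21.8% of all genes, 1 of them lower (D430040L24Rik, -1.86, adjusted p = 4.61e-09), with a median of 0.23. In subpolysomal RNA 12 were called, beside 24.2% of all genes, 5 of them lower, with a median of 0.28. The higher neighbours included the fetal liver gene Afp (1.26 on polysomes, adjusted p = 2.59e-06) and the chemokine genes Cxcl3 (1.17, adjusted p = 3.97e-06), Cxcl2 (0.51, adjusted p = 0.00312) and Cxcl5 (0.54, adjusted p = 0.00477).

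**Figure D4:**
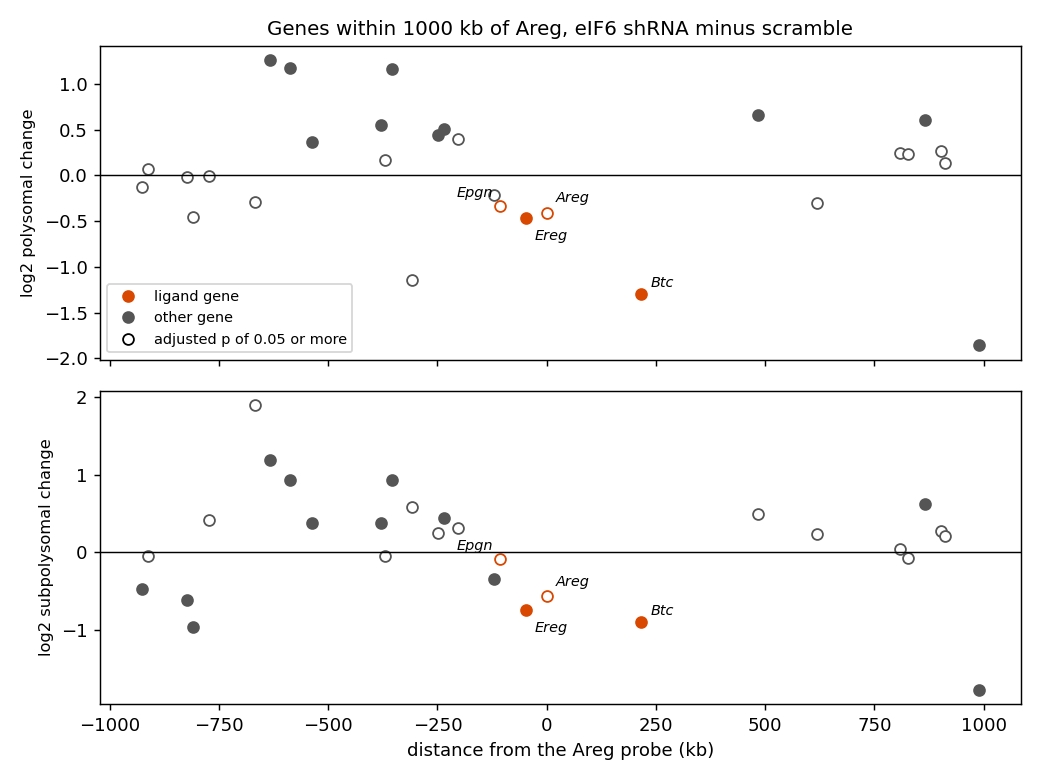
Log2 change of the genes within 1000 kb of the Areg probe (eIF6 shRNA minus scramble, y axis) against distance from that probe in kb, on polysomes above and in subpolysomal RNA below; orange marks ligand genes and filled points an adjusted p under 0.05. The 4 ligand genes lie below 0 in both panels, at -0.34, -0.47, -0.41 and -1.30 on polysomes in the order Epgn, Ereg, Areg and Btc, between other genes of both signs.

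Over the 16 arrays, the gene whose signal ran most like that of each of the 9 was Plat for Egfr (Pearson r = 0.94), Phlda1 for Erbb2 (0.93) and Gm14851 for Erbb3 (0.97). Among the ligands it was Mob3b for Tgfa (0.99), Samd5 for Areg (0.93), Ttl for Ereg (0.97), Ldlrad4 for Hbegf (0.96), Rasl11a for Btc (0.98) and Usp46 for Egf (0.99). These values are a description, since the arrays share 4 groups and each is the best among 19320 genes with a value on every array.

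Of the remaining receptor and ligands of the family, Erbb4, Nrg2 and Nrg3 did not pass the detection filter, and Nrg2 and Nrg3 were well above background on no array. Nrg4, a neuregulin that binds Erbb4, was well above background on 0 of 4 scramble and 4 of 4 eIF6 shRNA polysomal arrays. In subpolysomal RNA it was well above background on 2 of 4 arrays with each shRNA. On eIF6 shRNA polysomes it was 1.41-fold above the lowest well-above signal of the scramble arrays, which is no strict limit. The limma fit, with scramble values below background, gave an adjusted p of 0.000457. Nrg1, a neuregulin that binds Erbb3, gave 0.39 on polysomes (adjusted p = 0.223) and 0.40 in subpolysomal RNA (adjusted p = 0.185).

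Ligand shedding was represented by 10 genes, of which 5 were called on polysomes, 4 lower and 1 higher, beside 21.8% of all genes (10.7% lower, 11.1% higher). The metalloproteases Adam19 (-2.02, adjusted p = 2.89e-09), Adam12 (-1.27, adjusted p = 1.16e-05) and Adam8 (-0.68, adjusted p = 0.000169) fell, as did Timp3 (-1.27, adjusted p = 9.62e-07), an inhibitor of such proteases. The same 4 genes were called lower in subpolysomal RNA. Rhbdf2, which carries Adam17 to the cell surface, was higher on polysomes (0.38, adjusted p = 0.00998). Adam17, the main sheddase of Tgfa, Areg, Ereg and Hbegf, gave 0.33 there (adjusted p = 0.0613). Its signal was low, with a mean of 3.54 on scramble polysomes. Adam17 was well above background on 4 of 4 arrays of both polysomal groups. In subpolysomal RNA this held on 0 of 4 scramble and 1 of 4 eIF6 shRNA arrays. Adam12 and Adam19 are also transcribed in mesenchymal cells, and the markers of those cells given above fell in the same arrays. Their part in these changes was not tested.

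Of 14 adaptors and exchange factors, which act directly downstream of the receptors, 1 was called on polysomes, Eps8 (-0.94, adjusted p = 0.00452), a substrate of Egfr that binds actin. Of 13 genes of the Ras-MAPK relay, 2 were called and both were higher, the kinase Mapk3 (0.63, adjusted p = 0.011) and its target Rps6ka1 (0.41, adjusted p = 0.00286). Both counts stand beside 21.8% of all genes called, and the medians of the lists were 0.075 and 0.068.

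Among 20 feedback inhibitors and genes of receptor turnover, 5 were called on polysomes, 4 lower and 1 higher, a share near the 21.8% of all genes. In subpolysomal RNA 10 were called, 9 lower and 1 higher, beside 24.2% of all genes (12.3% lower). On polysomes Lrig3 (-0.64, adjusted p = 0.00511), the Egfr-binding suppressor Socs5 (-0.56, adjusted p = 0.0275), the Ras-MAPK inhibitor Spry1 (-0.54, adjusted p = 0.00707) and the endocytic adaptor Sh3kbp1 (-0.40, adjusted p = 0.015) fell, and the ubiquitin ligase Cblc rose (0.73, adjusted p = 0.00895). In subpolysomal RNA these 5 were called in the same direction, and Spry2 (-0.77, adjusted p = 0.00766), Cbl (-0.64, adjusted p = 0.0148) and Errfi1 (-0.27, adjusted p = 0.0358), the last an inhibitor of the Egfr kinase, were also lower. The list median was -0.098 on polysomes and -0.29 in subpolysomal RNA.

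The early response list, 15 genes that growth factors switch on, had 6 called on polysomes, 4 lower and 2 higher, beside 21.8% of all genes, and a median of -0.13. Etv5 (-0.70, adjusted p = 0.00569), Etv4 (-0.58, adjusted p = 0.000183) and Egr2 (-0.57, adjusted p = 6.12e-05) fell. Egr3 was called lower (-1.16, adjusted p = 0.0297) but was well above background on 7 of 16 arrays. Junb (0.61, adjusted p = 0.00047) and Fos (0.24, adjusted p = 0.0157) were higher. In subpolysomal RNA 3 were called, all lower, beside 24.2% of all genes, with a median of -0.18. No gene of these 6 lists was called for a change in translational efficiency, beside only 1.51% of all genes tested.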

How the data were processed

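The authors deposited, for each of the 16 arrays, the scanner software's intensity per spot, with background removed but no normalization across arrays, and log2 values that the authors had quantile normalized. The file headers name Feature Extraction 10.7.3.1 and the submitters' notes 10.7.7.1. Gene names and mm9 coordinates are those of the files. Spots marked as outliers were dropped, which left 47 values missing among 25262 kept probes, and repeated spots were averaged. Probes had to be well above background on 2 or more arrays in any group. The log2 intensities were quantile normalized, averaged per gene name and fitted with 4 group means in limma 3.58.1 (R 4.3.3; files were read with version 1.17.8 of the data.table package); p was adjusted by Benjamini-Hochberg, threshold 0.05. The fit was tested on simulated data, and repeated with other scalings, background correction, filters, probe choice, the authors' table, slide or replicate as a block and each replicate left out. Where no array of a group was well above background, a fold was given against the lowest signal well above background, which is not a strict limit. The number of arrays limits the precision. Genes named beyond the 9 members were the most similar by Pearson r and, per list, up to 4 called genes with the largest polysomal change. Others named (Rhbdf2, Adam17, Sh3kbp1, Spry2, Cbl, Errfi1, Egr2, Fos, the markers and the neighbours of Areg) were chosen after their values were seen. Members and lists were chosen with earlier results of these data known. Python 3.11.15 and matplotlib 3.10.9 made the figures.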

Additional observations from a re-analysis of the deposited data

Results flagged for a closer look

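Single arrays stood apart from the other 3 of their group, by Dixon's ratio of the gap to the range, in 4 of 48 groups examined, where chance gives about 1 in 20. They were the eIF6 shRNA subpolysomal array of replicate 4 for Erbb3 (ratio 0.848, signal 2.69), the eIF6 shRNA polysomal array of replicate 2 for Tgfa (0.926, signal 7.92), the eIF6 shRNA subpolysomal array of replicate 4 for Hbegf (0.881, signal 13.38) and the scramble polysomal array of replicate 4 for the Egfr probe with the stop codon (0.87, signal 8.74). The change of Erbb3 differed between the fractions in the limma fit (1.58, adjusted p = 0.0444), with both scramble fractions not well above background.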

How the results depend on the processing

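The number of the 9 genes called was 4 on polysomes, 5 in subpolysomal RNA, 1 for translational efficiency and 7 for each ratio of fractions. Scaling to 8 spike-in probes gave 2, 0 and 0 for the first 3 comparisons, moved the median change of all genes to -0.48 on polysomes and -0.24 in subpolysomal RNA, and left 1142 genes called on polysomes (1044 lower), 385 in subpolysomal RNA (346 lower) and 28 for translational efficiency (26 lower), against 4221, 4686 and 292. No member was called for translational efficiency with the 75th percentile, normalization before the filter, no filter or the authors' log2 table (0 in each). All genes called for translational efficiency numbered 465 with the 75th percentile (408 lower), 470 with separate normalization of the fractions and 567 with normexp (offset 50). The 75th percentile made 8473 genes lower and 4115 higher on scramble polysomes than in subpolysomal RNA (5498 and 6138 before), and 8917 and 3988 with the eIF6 shRNA (5553 and 6224 before). Without 1 replicate the members called ranged from 2 to 5, 2 to 6, 0 to 0, and for the scramble ratio 4 to 6, and all genes called from 2778 to 4997, 2625 to 6159 and 74 to 295. Signs turned in values that had not passed, and in the ratios. With spike-in scaling these were the polysomal change of Egf (-0.57), the subpolysomal change of Egfr (-0.24), translational efficiency of Erbb2 (-0.027), Areg (-0.055), Hbegf (-0.10) and Egf (-0.11), the scramble ratios of Erbb3 (0.22), Ereg (1.58) and Egf (0.21), and the eIF6 shRNA ratios of Ereg (1.63) and Egf (0.098). With the 75th percentile they were the polysomal change of Egf (-0.11) and the eIF6 shRNA ratio of Egfr (-0.13), and with the brightest probe the subpolysomal change of Egfr (-0.34) and its ratios (-0.17 and -0.25). Without 1 replicate the polysomal changes of Erbb2 and Egf ran from -0.048 to 0.052 and from -0.035 to 0.11, the subpolysomal change of Egfr from -0.035 to 0.14, translational efficiency of Tgfa from -0.18 to 0.070 and the eIF6 shRNA ratio of Egfr from -0.014 to 0.14. The cause was not tested. Deviations of same-numbered samples correlated at -0.211 to 0.413 (over 0.1 in 3 of 24 pairs), which cannot settle whether the replicate numbers pair the samples. A fit with the replicate block called 5, 4, 1, 6 and 7 members. With it Egfr on polysomes (adjusted p = 0.0413) and Areg in subpolysomal RNA (0.044) passed. Tgfa (0.0651) and Hbegf (0.0575) in subpolysomal RNA and the scramble ratio of Erbb2 (0.066) no longer did. The slide as a block ended the subpolysomal call of Hbegf (adjusted p = 0.0529) and no other call of a member. The polysomal call of Btc held in all 15 alternatives and that of Ereg in 12. That of Erbb3 also held in all 15, but this gene passed the filter only through the eIF6 shRNA arrays. Its scramble levels were not measured, so its calls are not separate evidence of a difference. The value of Erbb3 ranged from 0.43 (normexp) to 3.69.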
